A study of Danio rerio with 15 samples.

Results

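Ribosome biogenesis is the making of ribosomal subunits in the nucleolus, and the genes described here are 45 zebrafish genes of that pathway and of RNA polymerase I, measured by 52 probe sets among the 15502 tested on an Affymetrix Zebrafish array. A probe set is a group of short oligonucleotides on the array that together measure 1 transcript. A probe set was a member where the platform annotation gives it a single gene symbol that starts with nop, nol, noc, utp, rrp or polr1, or that is fbl, dkc1, gar1, nhp2, bop1, pes, ebna1bp2, imp3, imp4 or tsr1. The rule itself reads gene symbols only, but it was proposed with earlier results of these data known. For 2 of the listed symbols, gar1 and ebna1bp2, no probe set was found under that name, and 1 probe set with several symbols was left out. By the known role of the gene, 8 probe sets (6 genes) belonged to RNA polymerase I, 7 (6 genes) to the small nucleolar ribonucleoprotein particles (snoRNPs), 20 (19 genes) to the making of the small subunit and 16 (13 genes) to that of the large subunit. The remaining probe set, of nol4lb, met the rule by its first letters only and is not placed in the pathway here. The genes bop1 (4 probe sets), imp4, nop58, polr1b and polr1g (2 each) were measured more than once, so probe sets of these genes are not independent of each other. They are numbered below in the alphabetical order of their identifiers.

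RNA polymerase I transcribes the long precursor of most ribosomal RNAs. Box C/D snoRNPs, which hold fibrillarin (fbl) and nop58, methylate that precursor, and box H/ACA snoRNPs, which hold dyskerin (dkc1) and nhp2, convert uridines in it to pseudouridine. The small subunit processome, to which the utp, imp and several nol proteins belong, cuts and folds the precursor of the small subunit, while bop1, pes and several noc, nop and rrp proteins act on the large subunit. In the early zebrafish embryo the cells divide fast with no transcription of their own and use ribosomes and mRNA laid down in the egg, until zygotic transcription starts at the mid-blastula transition.

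Each array was hybridised with RNA from 20 whole embryos. The groups were embryos at the 16-cell stage (2 arrays) and at 50% epiboly, the onset of gastrulation (1 array), whose titles name no genotype. Wild type and MZdicer, with 3 arrays each, were left uninjected until 9 hours of age. Both genotypes were also injected with miR-430 at the 1-cell stage, again with 3 arrays each. MZdicer embryos lack both the maternal and the zygotic function of Dicer, the enzyme that cuts microRNA precursors, and the miR-430 microRNAs are made once the embryo starts its own transcription, and the series title links them to the removal of maternal mRNAs. How old the injected embryos were is not in the labels, so a difference in age cannot be told apart from injection where injected and uninjected groups are compared. No control injection is among the groups, so injection itself and miR-430 cannot be told apart. Whether replicate arrays stem from different clutches is not labelled, and the p-values then reflect the spread of these arrays alone, which may be technical. In RNA of whole embryos, fewer cells of a type and less RNA per cell cannot be told apart, and because cDNA was primed on the poly(A) tail, a level can change with the length of the tail and not just with transcript amount. Levels below are quantile-normalised intensities without a unit, and they are compared between arrays only, never between probe sets. A log2 change is that of level + 16, with its standard error (SE), and a change was called at an adjusted p under 0.05 from limma over all 15502 probe sets.

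The dicer1 transcript, which checks the genotype, was at 499.8, 444 and 455 in uninjected wild type and at 313, 290.4 and 314 in MZdicer, and the injected groups had 551, 556 and 579 and 250.5, 286 and 291. All 6 MZdicer arrays thus lay below all 6 wild-type arrays at 9 hours or after injection. On the arrays whose titles name no genotype, dicer1 was at 635 and 626 at 16 cells and at 361 at 50% epiboly. Of the markers of stage, the maternal genes buc, h1m, ccna1 and dazl were high at 16 cells and far lower in every other group. The gastrula genes msgn1, ved, cdx4, krt4 and krt8 were the reverse. Among the maternal genes, ccna1 was at 190, 216 and 276 in uninjected MZdicer against 116, 98.2 and 120 in uninjected wild type. dazl was at 108, 122 and 131 against 70.7, 75.1 and 80.2. Neither gene's groups overlapped, while those of buc and h1m did. The 15 arrays were scanned on 3 days. Wild type replicate 1 was alone on its day, and the 16-cell and 50% epiboly arrays shared a day with no other group, so stage and scan day cannot be told apart. Uninjected wild type shared no recorded hybridisation date with any other group, while injected and uninjected MZdicer shared a single date. In comparisons with uninjected wild type, group and hybridisation date thus cannot be told apart. The interaction uses that group too. The ratio of signal at the middle to signal at the 5′ end of the actin control, a measure of how far RNA was copied, ran from 15.4 to 20.4 in MZdicer, 12.1 to 12.7 in injected MZdicer, 8.70 to 10.9 in wild type, 8.86 to 10.4 in injected wild type and 4.12 to 4.19 at 16 cells, and was 15.1 at 50% epiboly. The ratio of 3′ to 5′ signal of the GAPDH control ran from 0.184 to 0.209 in MZdicer, 0.134 to 0.167 in injected MZdicer, 0.146 to 0.177 in wild type, 0.186 to 0.227 in injected wild type and 0.313 to 0.429 at 16 cells, and was 0.225 at 50% epiboly. Both ratios moved with the groups compared below, in different orders, and their part in the results was not tested.

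**Figure D1:**
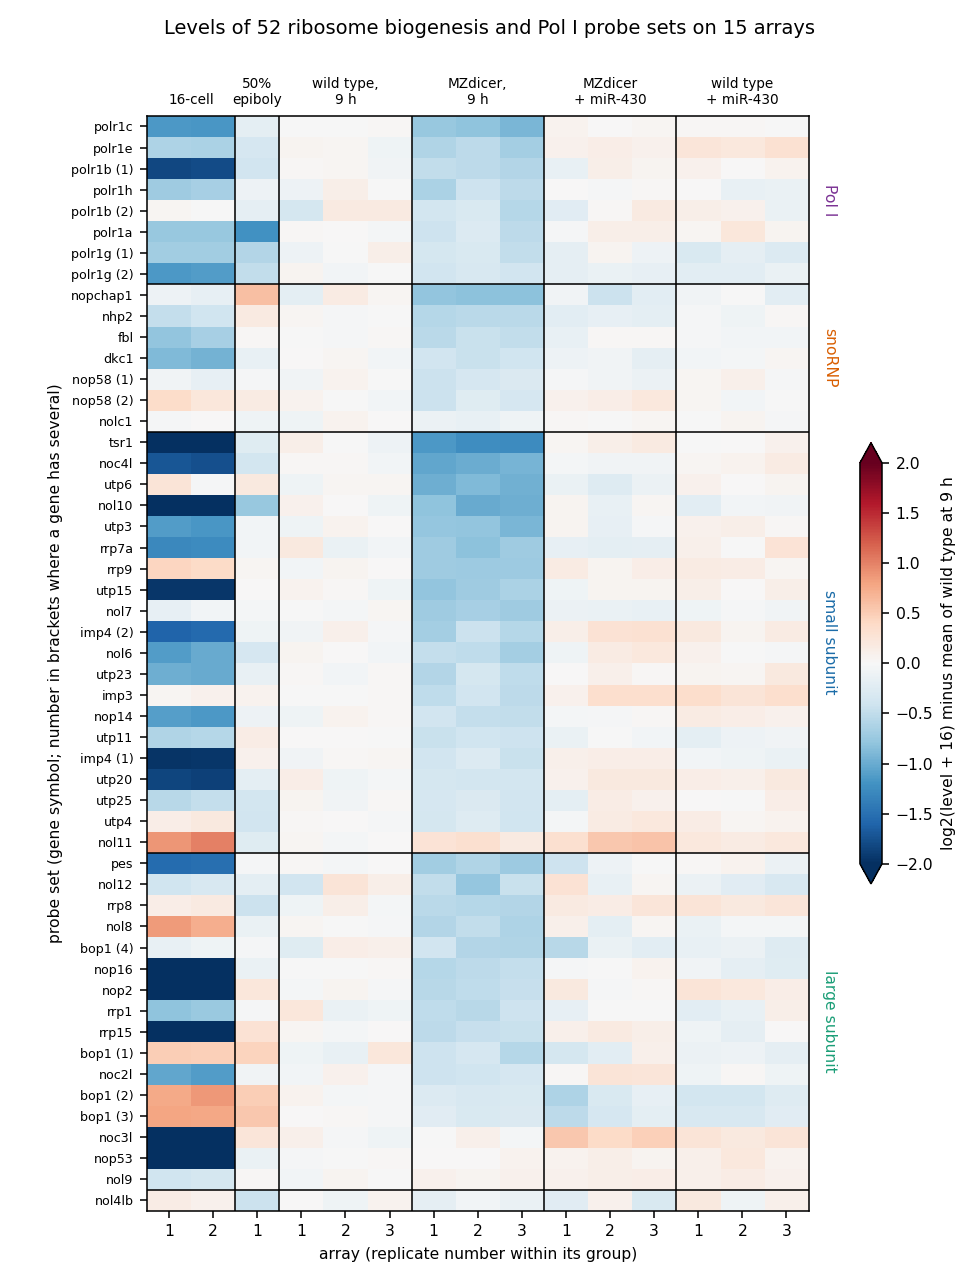
Level of each of the 52 probe sets on each of the 15 arrays, as log2(level + 16) minus the mean of uninjected wild type at 9 hours, with blue for lower and red for higher. Rows are grouped by role and sorted by the change in MZdicer, columns are arrays with their replicate number, and where a gene has several probe sets they are numbered in the order of their identifiers. The MZdicer columns are blue in nearly all rows, the columns of both injected groups are close to white, and the 16-cell columns hold the deepest blue.

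The comparison of uninjected MZdicer with uninjected wild type asks how these transcripts stand in embryos that lack Dicer function. Of the 52 probe sets, 47 were lower in MZdicer and 1 was higher (limma), where 25.2% of all probe sets were called lower and 22.2% higher. The median log2 change was -0.49 over the members and -0.07 over all probe sets. Dim probe sets are part of these shares, while 50 of the 52 members lay outside the dimmest 40% by mean level. With that 40% left out, 3047 of the 9301 probe sets kept were called lower and 2589 higher. Of the members kept, 46 were then lower and 1 higher. On 46 of the 52 the 3 MZdicer arrays lay below all 3 wild-type arrays, which held for 31.8% of all probe sets. Taken by role, 8 of 8 probe sets of RNA polymerase I, 7 of 7 of the snoRNPs, 19 of 20 of the small subunit and 13 of 16 of the large subunit were lower.

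All 6 genes of RNA polymerase I fell. The largest change was that of polr1c, a subunit that RNA polymerases I and III share, which was at 559, 558 and 569.8 in wild type and 328, 316 and 291 in MZdicer. The MZdicer arrays all lay far below the wild-type ones, which differed little among themselves, and the log2 change was -0.82 ± 0.060 (adjusted p = 2.64e-07). polr1e, a subunit specific to polymerase I, was at 716, 714 and 649 against 449.8, 479 and 425 (log2 change -0.60 ± 0.062, adjusted p = 5.37e-06). The groups again did not overlap. The second-largest catalytic subunit, polr1b, was at 1202, 1214 and 1129 against 833, 815 and 784 on probe set 1 (log2 change -0.53 ± 0.067, adjusted p = 2.66e-05). Its dim second probe set, number 2, read 55.8, 87.8 and 88.1 against 55.0, 58.4 and 45.9, and there wild type replicate 1 lay among the MZdicer arrays (log2 change -0.41 ± 0.16, adjusted p = 0.0452, which ranged from 0.0044 to 0.162 over the alternatives). That call was lost without any 1 MZdicer array, without wild type replicate 2 or 3, and without MZdicer miR-430 replicate 2 or wild type miR-430 replicate 1 or 2.

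polr1h, a small subunit of the polymerase, was at 596, 697 and 641 in wild type and 407, 481 and 443 in MZdicer (log2 change -0.52 ± 0.077, adjusted p = 0.000102). For the largest catalytic subunit, polr1a, wild type had 422, 414 and 403 and MZdicer 306, 341 and 282 (log2 change -0.40 ± 0.081, adjusted p = 0.0013). Neither gene's groups overlapped. polr1g, another subunit specific to polymerase I, was at 398, 429.7 and 465 against 332, 347 and 301 on probe set 1 (log2 change -0.38 ± 0.085, adjusted p = 0.00243). On probe set 2 it was at 649, 607 and 628 against 478, 499 and 480.4 (log2 change -0.36 ± 0.056, adjusted p = 0.00016). The calls of polr1a and of both polr1g probe sets were lost with the intensities as deposited, where their adjusted p rose to 0.0996, 0.0908 and 0.074.

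Among the snoRNP genes, fbl, the methyltransferase of the box C/D particle, was at 5132, 5079 and 5234 in wild type and 3539, 3788 and 3657 in MZdicer (log2 change -0.49 ± 0.045, adjusted p = 1.93e-06). The pseudouridine synthase gene dkc1 was at 3648, 3707 and 3489 against 2757, 2657 and 2748 (log2 change -0.41 ± 0.042, adjusted p = 5.49e-06), and nhp2, its partner in the H/ACA particle, at 4697, 4516 and 4559.9 against 3103, 3156 and 3167 (log2 change -0.54 ± 0.035, adjusted p = 9.31e-08). For all 3 genes the MZdicer arrays stood close together and clear of wild type. The core C/D protein gene nop58 fell on both probe sets, by 0.35 on probe set 1 and by 0.34 on probe set 2 on the log2 scale, and nopchap1, a chaperone of C/D assembly, fell by 0.81. The smallest called change was that of nolc1, a nucleolar phosphoprotein that binds snoRNPs, at 3296, 3664 and 3499 in wild type and 3217, 3127 and 3271 in MZdicer. Its log2 change of -0.12 ± 0.043 passed the test narrowly (adjusted p = 0.0354), although the groups did not overlap. The call was lost under 9 alternatives, among them without MZdicer replicate 1 or 2 and without wild type replicate 2 or 3, with an adjusted p of up to 0.153.

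The largest falls of all members were in the small subunit group. tsr1, an assembly factor related to translational GTPases that sits on the late small subunit precursor, was at 1767, 1625 and 1518 in wild type and 725, 678 and 671 in MZdicer. The MZdicer arrays lay close together, far below every wild-type array, and the log2 change was -1.22 ± 0.062 (adjusted p = 1.48e-08). noc4l, whose yeast form is needed to mature the small subunit, was at 829.5, 836 and 790.2 against 389.8, 405 and 422, a log2 change of -0.99 ± 0.056 (adjusted p = 3.46e-08). The next in size were utp6 (-0.94 ± 0.061, adjusted p = 9.51e-08), nol10 (-0.93 ± 0.083, adjusted p = 1.44e-06) and utp3 (-0.83 ± 0.072, adjusted p = 1.13e-06), all of the processome. nol7, whose human form is a processome component, was at 2243, 2180.0 and 2309 against 1370.1, 1416 and 1358, with a smaller change of -0.69 ± 0.040 but close replicates (adjusted p = 4.33e-08). The other 13 called lower in this group, among them imp3, both imp4 probe sets, utp15 and utp20, fell by 0.33 to 0.75.

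The exception was nol11, a processome gene of the transcription-coupled subcomplex, which was at 747, 714 and 731 in wild type and 886, 917 and 830.2 in MZdicer. All MZdicer arrays were above wild type, and the log2 change was 0.26 ± 0.067 (adjusted p = 0.00677), the only rise called among the members. Its adjusted p ranged from 0.000791 to 0.0333 over the alternatives run. Its neighbours in the processome utp4 and utp15 fell, by 0.33 and by 0.71.

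Of the large subunit genes, pes, whose protein works in 1 complex with that of bop1, fell most, by 0.68. nol12, rrp8, nol8, nop16 and nop2 fell by 0.50 to 0.57, and rrp1, rrp15 and noc2l by 0.38 to 0.49. All 4 probe sets of bop1 were called lower, by 0.27 to 0.52, but the calls of 3 of them were lost under some alternatives, with adjusted p-values of up to 0.137 (probe set 1), 0.209 (probe set 2) and 0.224 (probe set 3), all 3 with the intensities as deposited. The first was also lost without wild type replicate 3 (adjusted p = 0.0584) and the second without wild type replicate 1 (0.0558) or MZdicer replicate 2 (0.0551). No change was called for noc3l (0.017 ± 0.067, adjusted p = 0.855), nol9 (0.074 ± 0.049, adjusted p = 0.232) and nop53 (0.030 ± 0.044, adjusted p = 0.6). The 95% intervals of these log2 changes ran from -0.13 to 0.16, from -0.032 to 0.18 and from -0.066 to 0.13. noc3l pairs with noc2l, nol9 is a polynucleotide kinase that acts on a spacer of the precursor, and nop53 recruits the RNA exosome, as known from yeast and human cells. Outside the pathway, nol4lb was not called either (-0.12 ± 0.12, adjusted p = 0.414).

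The batches do not separate from genotype fully. Without wild type replicate 1, the array scanned on its own day, 46 members were called lower and 1 higher. The hybridisation date as a random block gave 45 and 1. The 3 MZdicer arrays shared their hybridisation date with 1 wild-type array, injected replicate 3. All MZdicer arrays were below that array on 49 of the 52 members, against 44.1% of all probe sets.

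Injection of miR-430 into MZdicer embryos was compared with uninjected MZdicer to ask which of these levels moved when the microRNA was supplied. Of the 52 probe sets, 44 were higher after injection and 0 lower (limma, and 0 lower also at an unadjusted p under 0.05), where 12% of all probe sets were called higher and 12.6% lower. The median log2 change was 0.51 over the members and 0.04 over all probe sets. With the dimmest 40% left out, 1784 of the 9301 probe sets kept were called higher and 1650 lower. Of the members kept, 44 were then higher and 0 lower. The arrays of the groups did not overlap on 44 of the 52, against 19.5% of all probe sets. By role, 7 of 8 probe sets of RNA polymerase I, 7 of 7 of the snoRNPs, 20 of 20 of the small subunit and 10 of 16 of the large subunit were higher. This comparison and the one before share the uninjected MZdicer arrays.

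tsr1, which had fallen most, was at 1683, 1775 and 1846 in injected MZdicer, all arrays far above the uninjected ones, and the log2 change was 1.33 ± 0.062 (adjusted p = 2.11e-08). noc4l was at 793, 783 and 781 (log2 change 0.93 ± 0.056, adjusted p = 1.76e-07). polr1c was at 594, 563 and 581 (log2 change 0.86 ± 0.060, adjusted p = 4.88e-07). For each of these genes the injected arrays overlapped those of uninjected wild type. rrp9, the U3 snoRNA-binding protein of the processome, rose from 416, 411 and 408 to 775, 719.7 and 757 (log2 change 0.84 ± 0.058, adjusted p = 4.88e-07), where wild type had 661, 718 and 691. The other large rises were those of nol10 (0.92 ± 0.083, adjusted p = 4.38e-06) and, on its probe set 2, of the U3 particle gene imp4 (0.80 ± 0.078, adjusted p = 7.9e-06). The other imp4 probe set, number 1, rose by 0.49.

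In the polymerase, polr1e was at 738, 761 and 735, polr1a at 408, 451 and 448 and polr1h at 649, 632 and 653 after injection. Their log2 changes were 0.70 ± 0.062, 0.47 ± 0.081 and 0.53 ± 0.077 (adjusted p = 3.7e-06, 0.000811 and 0.000233). polr1b read 1059, 1281 and 1221 on probe set 1, a change of 0.54 ± 0.067 (adjusted p = 6.58e-05). All of these arrays lay above uninjected MZdicer. On the dim probe set 2 polr1b read 62.4, 77.3 and 87.7, which was not called (0.40 ± 0.16, adjusted p = 0.0822). polr1g read 376, 445 and 401 on probe set 1 and 549.7, 574 and 558 on probe set 2, with small called rises of 0.30 ± 0.085 and 0.20 ± 0.056 (adjusted p = 0.0182 and 0.0181). Both calls were lost under some alternatives, with an adjusted p of up to 0.086 and 0.25.

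Of the snoRNP genes, fbl was at 4660.3, 5218 and 5249 (log2 change 0.46 ± 0.045, adjusted p = 8.67e-06), dkc1 at 3359, 3428 and 3182 (0.29 ± 0.042, adjusted p = 0.000264) and nhp2 at 3976, 4079.8 and 3992 (0.35 ± 0.035, adjusted p = 9.25e-06). All these arrays were above uninjected MZdicer. No rise was called for any of the 4 probe sets of bop1, whose log2 changes ran from -0.08 to 0.28 with adjusted p-values of 0.125 to 0.684, nor for nol9, nop53 and nol4lb. Both nol11, which had been higher in MZdicer already, and noc3l, which had not been called, were higher after injection, by 0.22 ± 0.067 (adjusted p = 0.0319) and 0.45 ± 0.067 (adjusted p = 0.000265). For nol11 the injected arrays, at 917, 1066 and 1090.3, overlapped the uninjected ones. The calls of nol11 and nolc1 were lost under some alternatives, with an adjusted p of up to 0.132 and 0.117.

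**Figure D2:**
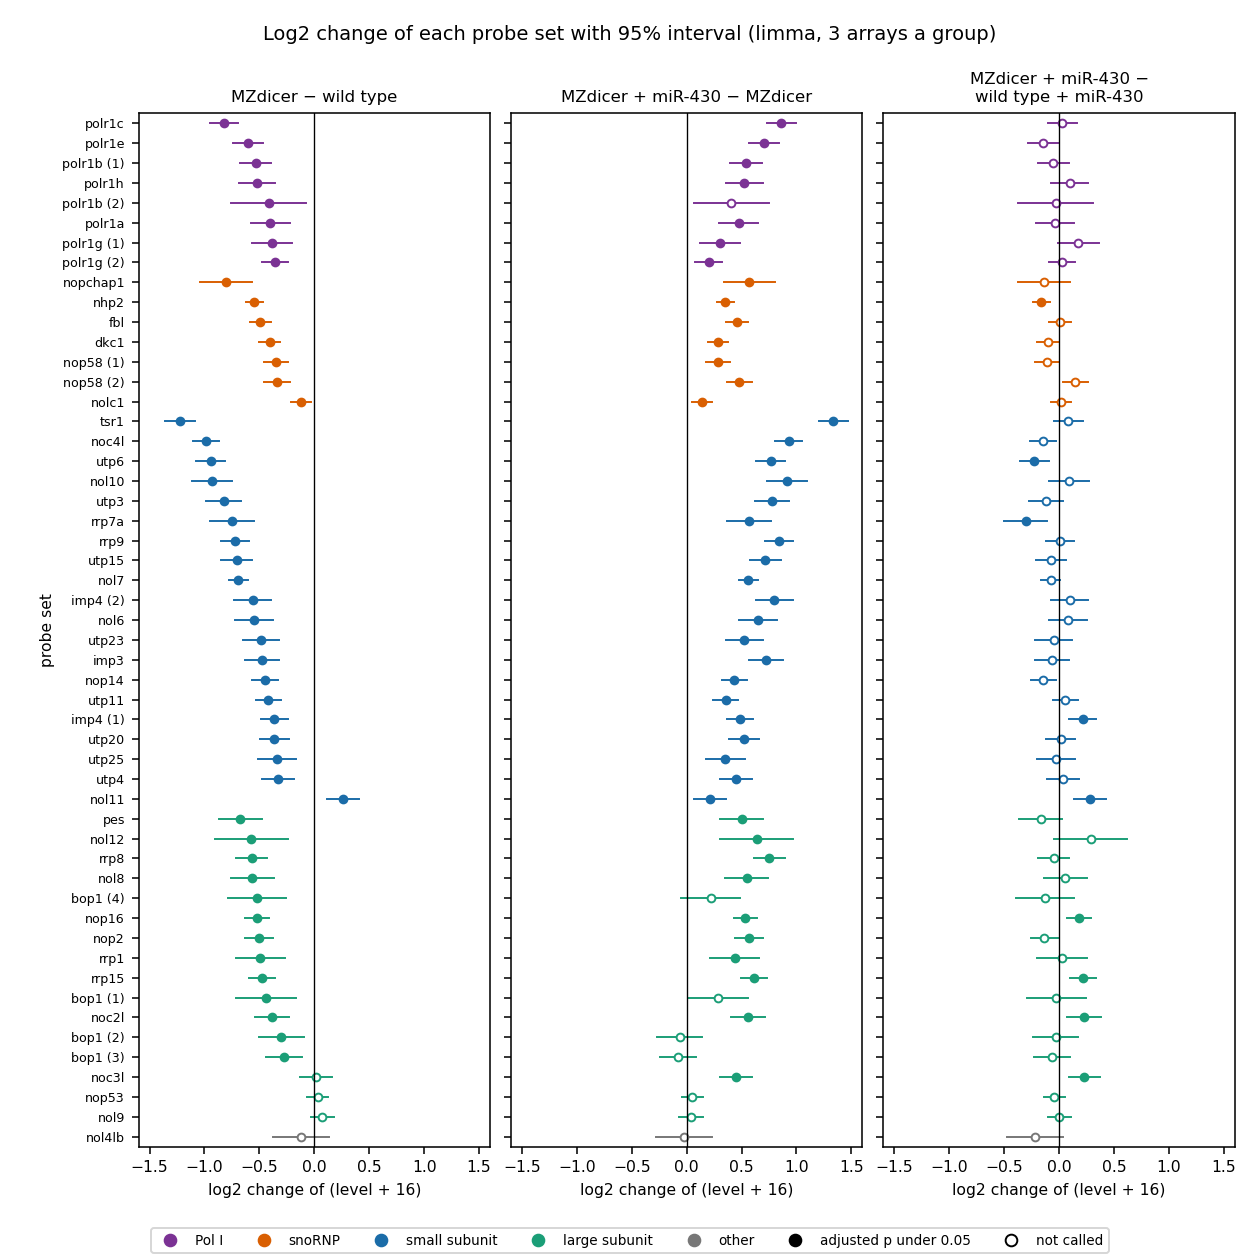
Log2 change of (level + 16) of each of the 52 probe sets with its 95% interval in MZdicer against wild type, in injected against uninjected MZdicer, and in injected MZdicer against injected wild type. Points are coloured by role and filled where the adjusted p was under 0.05, and the order of rows is that of the first panel within each role. Most points lie left of 0 in the first panel (47 called lower and 1 higher) and right of it in the second (44 called higher). In the third panel the points lie around 0, between -0.30 and 0.29.

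Injected MZdicer embryos were then compared with each wild-type group, to see where the levels stood after the injection. Against uninjected wild type, 5 members were higher and 7 lower (9.62% and 13.5%), where 16.3% and 15% of all probe sets were called. The member changes ran from -0.36 to 0.47 with a median of 0.01. Against injected wild type, in which both groups had received miR-430, 6 were higher and 3 lower (11.5% and 5.77%). Over all probe sets 11.4% and 9.45% were called. The member changes ran from -0.30 to 0.29 with a median of -0.03. The counts of both comparisons lie near or below the share over all probe sets and are not read as a result about the members. A change that was not called does not show equal levels: for tsr1 the difference from uninjected wild type was 0.11 ± 0.062, with a 95% interval from -0.021 to 0.25.

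Members still lower than in uninjected wild type were nhp2 at 3976, 4079.8 and 3992 against 4697, 4516 and 4559.9 (-0.19 ± 0.035, adjusted p = 0.00117), utp6 (-0.17 ± 0.061, adjusted p = 0.0443) and nol7 at 2077, 2035 and 2023 against 2243, 2180.0 and 2309 (-0.13 ± 0.040, adjusted p = 0.024). The arrays of the groups did not overlap for any of these genes, but the differences were small. Over all 15502 probe sets, the arrays did not overlap on 3017 with injected MZdicer lower and on 3005 with it higher. dkc1 (-0.12 ± 0.042, adjusted p = 0.0448) and polr1g on probe set 2 (-0.16 ± 0.056, adjusted p = 0.0448, and -0.078 ± 0.085 on probe set 1, adjusted p = 0.522) were at the edge of the test. bop1, which had shown no called rise, was lower on 2 of its 4 probe sets. It was at 545, 678 and 751 against 883, 818 and 832 on probe set 2 (-0.36 ± 0.093, adjusted p = 0.00994) and at 557, 635 and 707 against 811, 820.1 and 801 on probe set 3 (-0.36 ± 0.076, adjusted p = 0.00336), whose identifier has the suffix of sets with probes that can match other transcripts. The other probe sets, numbers 1 and 4, had -0.16 ± 0.12 and -0.30 ± 0.12 (adjusted p = 0.372 and 0.0788).

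Above uninjected wild type stood nol11, at 917, 1066 and 1090.3 against 747, 714 and 731 (0.47 ± 0.067, adjusted p = 0.000201), and noc3l, at 918, 827 and 878 against 676, 619 and 591 (0.47 ± 0.067, adjusted p = 0.000212). Every injected array was above every uninjected wild-type array for both. imp3, a U3 particle gene, was at 902, 1079 and 1070.1 against 845, 842 and 859 (0.25 ± 0.071, adjusted p = 0.017). imp4 read 878, 986 and 993 against 767, 862 and 788 on probe set 2 (0.24 ± 0.078, adjusted p = 0.0344), while probe set 1 was not called (0.12 ± 0.056, adjusted p = 0.12). rrp8, a nucleolar methyltransferase, was the fifth (0.18 ± 0.065, adjusted p = 0.0482). These counts rest on few arrays. Where 5 were higher and 7 lower, the members were counted anew with 1 array left out. Then 9 were higher without MZdicer miR-430 replicate 1, 2 without its replicate 2 or 3 and 3 without wild type replicate 3. Lower were 3 without MZdicer miR-430 replicate 3. Without wild type replicate 3, MZdicer replicate 1 or 3, or wild type miR-430 replicate 1 or 2, 4 were lower. With the intensities as deposited 11 were higher and 3 lower.

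Against injected wild type, the members called higher were nol11, noc3l, noc2l, rrp15, nop16 and imp4 on probe set 1. nol11 was at 917, 1066 and 1090.3 against 846, 823 and 846 (0.28 ± 0.067, adjusted p = 0.0105). rrp15, a large subunit factor, was at 1547, 1624 and 1559.8 against 1355, 1261 and 1441 (0.22 ± 0.055, adjusted p = 0.0124). nop16, also of the large subunit, was at 2042, 2059.7 and 2165 against 1963, 1832 and 1743 (0.18 ± 0.050, adjusted p = 0.0227). The groups of nol11, rrp15 and nop16 did not overlap, and the ratios of the group means were 1.22, 1.17 and 1.13. imp4 was at 1159, 1183 and 1186 against 1038, 1016 and 978 on probe set 1 (0.22 ± 0.056, adjusted p = 0.0161), noc3l had 0.23 ± 0.067 (adjusted p = 0.0271) and noc2l 0.23 ± 0.072 (adjusted p = 0.0407). The imp4 probe set 2 was not called (0.095 ± 0.078, adjusted p = 0.434). Lower were nhp2, at 3976, 4079.8 and 3992 against 4506, 4329 and 4647 (-0.16 ± 0.035, adjusted p = 0.00607), utp6, at 833, 765 and 844 against 980.4, 924 and 960.0 (-0.23 ± 0.061, adjusted p = 0.0185), and rrp7a of the small subunit, at 529.8, 519 and 523 against 640.1, 595 and 725 (-0.30 ± 0.091, adjusted p = 0.032). The groups of all 3 did not overlap. Over all 15502 probe sets, the arrays did not overlap on 2720 with injected MZdicer higher and on 2566 with it lower. None of the 9 calls against injected wild type held under every alternative run. Counted anew, 1 member was called higher without MZdicer miR-430 replicate 3, 2 without wild type miR-430 replicate 3 and 3 without wild type miR-430 replicate 2. Called lower was 1 without MZdicer miR-430 replicate 2 or wild type miR-430 replicate 1 or 3.

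In wild type, which has its own miR-430, injected embryos were compared with uninjected ones. Of the 52 probe sets, 5 were higher and 4 lower (9.62% and 7.69%), where 7.32% and 6.73% of all probe sets were called. The median log2 change was 0.02. These counts lie near the share over all probe sets and are not read as a result about the members. The number called higher dropped to 1 without wild type miR-430 replicate 1 or wild type replicate 3 and to 2 without wild type miR-430 replicate 2 or 3. The number called lower dropped to 0 without wild type miR-430 replicate 2 or wild type replicate 2 or 3, to 1 without replicate 1 of either group, and to 2 without wild type miR-430 replicate 3, MZdicer miR-430 replicate 3 or any 1 MZdicer array. With the arrays scaled to their medians 3 were higher and 7 lower. imp3 was at 1085, 1014 and 1076 against 845, 842 and 859 (0.31 ± 0.071, adjusted p = 0.011), polr1e at 822, 803 and 856 against 716, 714 and 649 (0.25 ± 0.062, adjusted p = 0.0175) and rrp8 at 652, 625 and 645 against 508, 593 and 530.3 (0.23 ± 0.065, adjusted p = 0.0308). The injected arrays of imp3, polr1e and rrp8 were all above the uninjected ones. noc3l was at 755, 721 and 751 against 676, 619 and 591 (0.24 ± 0.067, adjusted p = 0.0317), and nop2, a cytosine methyltransferase of the large subunit rRNA, had 0.20 ± 0.058 (adjusted p = 0.0401). Lower were bop1, at 648, 649.9 and 707 on probe set 2 (-0.33 ± 0.093, adjusted p = 0.0318) and 649, 643 and 693 on probe set 3 (-0.29 ± 0.076, adjusted p = 0.0232), polr1g, at 539, 540.4 and 569.8 on probe set 2 (-0.19 ± 0.056, adjusted p = 0.0412), and nop16 (-0.16 ± 0.050, adjusted p = 0.0455). The groups did not overlap for any of these 9 probe sets, which were picked by their p from the same arrays. Over all 15502 probe sets, the arrays did not overlap on 2564 with injected wild type higher and on 2608 with it lower. The other probe sets of bop1 had -0.13 ± 0.12 on probe set 1 and -0.18 ± 0.12 on probe set 4 (adjusted p = 0.553 and 0.399), and polr1g had -0.25 ± 0.085 on probe set 1 (adjusted p = 0.0669).

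For most of the polymerase, snoRNP and small subunit genes named above no change was called in injected wild type. polr1c was at 571, 571 and 559.7, polr1b at 1251, 1189 and 1241 on probe set 1 and 83.9, 81.0 and 67.5 on probe set 2, and polr1a at 427, 487 and 429. polr1h was at 644, 581 and 584 and polr1g at 345, 376 and 354 on probe set 1. tsr1 was at 1631, 1637 and 1732, noc4l at 842, 858 and 918, fbl at 5079, 4971 and 4971 and dkc1 at 3474, 3534 and 3719. The adjusted p of the change was between 0.336 and 0.958 for polr1a, polr1b, polr1c, polr1h, tsr1, noc4l, fbl and dkc1.

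The difference between the injection's effect in MZdicer and its effect in wild type, the interaction in the model, was positive and called for 40 of the 52 probe sets and negative for 0 (limma, and 0 negative also at an unadjusted p under 0.05), where 10.7% of all probe sets were called positive and 11.9% negative. With the dimmest 40% left out, 1589 of the 9301 probe sets kept were called positive and 1550 negative, and 40 members positive. The interaction was called for 7 of 8 probe sets of RNA polymerase I, 6 of 7 of the snoRNPs, 18 of 20 of the small subunit and 9 of 16 of the large subunit. On the log2 scale it was largest for tsr1 (1.31 ± 0.087, adjusted p = 1.09e-06), nol10 (1.02 ± 0.12, adjusted p = 5.77e-05) and nol12 (0.86 ± 0.22, adjusted p = 0.0118). polr1c (0.85 ± 0.085, adjusted p = 2.21e-05), noc4l (0.84 ± 0.079, adjusted p = 1.43e-05) and rrp9 (0.73 ± 0.083, adjusted p = 5.39e-05) followed, and nol7 had 0.62 ± 0.057 (adjusted p = 1.25e-05). It was not called for nol11 (0.022 ± 0.095, adjusted p = 0.904), whose arrays were above uninjected wild type in injected wild type too, at 846, 823 and 846 against 747, 714 and 731 (0.19 ± 0.067, adjusted p = 0.076), nor for noc3l, nol9, nop53, nolc1, utp25, bop1, nol4lb and the dim polr1b probe set. Over the 4 groups together, all 3 uninjected MZdicer arrays lay below all 9 arrays of the other groups on 41 of the 52 members, against 11.4% of all probe sets.

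**Figure D3:**
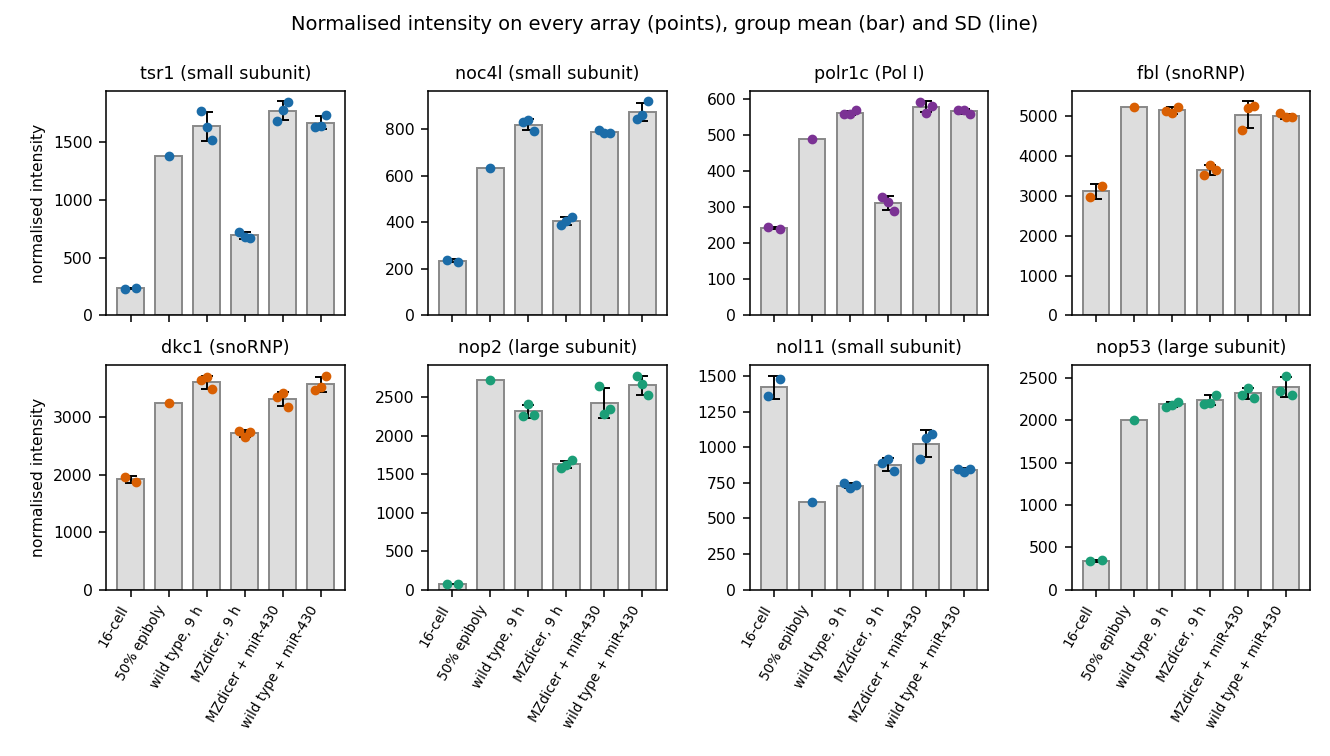
Normalised intensity of 8 genes on every array (points), with the mean of each group (bar, from 0) and its SD (line), by role. tsr1, noc4l, polr1c, fbl, dkc1 and nop2 are lowest of the 9-hour and injected groups in uninjected MZdicer, nol11 is lowest in uninjected wild type, and nop53 shows no difference called between MZdicer and wild type.

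The 16-cell stage, before zygotic transcription, was set against the 9-hour wild type to ask which of these transcripts are supplied to the egg and which accumulate later. Of the 52 probe sets, 33 were lower at 16 cells and 7 higher, where 35.6% of all probe sets were called lower and 40% higher. The median log2 change was -0.71 over the members and 0.08 over all probe sets. Lower were 7 of 8 probe sets of RNA polymerase I, 14 of 20 of the small subunit, 9 of 16 of the large subunit and 3 of 7 of the snoRNPs. With the arrays scaled to their medians instead, 30 were lower and 12 higher, and the median was -0.39 over the members and -0.02 over all probe sets. With the dimmest 40% left out, 4517 of the 9301 probe sets kept were called lower and 3522 higher, with a median of -0.19. Of the members kept, 34 were then lower and 9 higher, with a median of -0.74.

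nop2 was at 72.7 and 69.3 on the 16-cell arrays, at 2719.8 on the 50% epiboly array and at 2257, 2412 and 2269.9 in wild type at 9 hours (log2 change between 16 cells and 9 hours -4.74 ± 0.067, adjusted p = 3.33e-18). rrp15 was at 200.2 and 202 at 16 cells, at 1751 at 50% epiboly and at 1474, 1389 and 1444 at 9 hours (-2.74 ± 0.062, adjusted p = 1.09e-15). Both genes were far lower at 16 cells than on any later array. tsr1 was at 231 and 237 at 16 cells and at 1378 at 50% epiboly (-2.72 ± 0.069, adjusted p = 4.24e-15). nop53, not called between MZdicer and wild type, was at 334 and 351 at 16 cells, at 2000.4 at 50% epiboly and at 2161, 2185 and 2223 at 9 hours (-2.62 ± 0.052, adjusted p = 2.39e-16). For these genes too the 16-cell arrays lay far below the later stages. noc3l (-2.93 ± 0.087, adjusted p = 3.4e-14) and nol10 (-2.28 ± 0.11, adjusted p = 9.83e-12) were far lower at 16 cells too. At 16 cells nop2 and noc3l, the latter at 76.5 and 61.3, were dim, and background signal and the added 16 limit how large a change can be read from them.

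The median log2 change between 16 cells and 9 hours was -0.72 over the polymerase I probe sets, -1.09 over those of the small subunit, -0.58 over those of the large subunit and -0.14 over those of the snoRNPs. polr1b was at 322 and 329 at 16 cells, 904 at 50% epiboly and 1202, 1214 and 1129 at 9 hours on probe set 1 (-1.81 ± 0.074, adjusted p = 1.76e-12). Its dim probe set 2 read 78.5 and 75.2 at 16 cells and 64.9 at 50% epiboly and was not called (0.015 ± 0.17, adjusted p = 0.939), and the sign of its change turned with the intensities as deposited. polr1c went from 246 and 241 through 491 to 559, 558 and 569.8 (-1.16 ± 0.068, adjusted p = 1.92e-10). On probe set 1 of polr1b and on polr1c the 50% epiboly array lay between the 2 other stages. polr1e was at 447 and 440.4 and then 548 (-0.62 ± 0.069, adjusted p = 5.52e-07), and polr1h at 386 and 399 and then 596 (-0.69 ± 0.084, adjusted p = 1.49e-06). polr1g was at 261 and 260.5 and then 282 on probe set 1 (-0.69 ± 0.092, adjusted p = 4.65e-06) and at 275 and 281 and then 440.0 on probe set 2 (-1.13 ± 0.064, adjusted p = 1.17e-10). polr1a was at 239 and 238 at 16 cells and 169 on the 50% epiboly array, below both other stages (-0.75 ± 0.089 between 16 cells and 9 hours, adjusted p = 1.18e-06). Among the snoRNP genes, fbl was at 2982 and 3249 and then 5234 (-0.72 ± 0.053, adjusted p = 3.18e-09), and dkc1 at 1961 and 1878 and then 3256 (-0.91 ± 0.048, adjusted p = 4.87e-11).

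A few members were higher at 16 cells than at 9 hours. nol11 was at 1363 and 1478 at 16 cells, 612 at 50% epiboly and 747, 714 and 731 at 9 hours (0.94 ± 0.075, adjusted p = 8.63e-09), and nol8, a large subunit factor, at 308 and 282 at 16 cells, 148 at 50% epiboly and 169, 163 and 160.4 at 9 hours (0.79 ± 0.10, adjusted p = 2.52e-06). For both genes the 16-cell arrays stood clear of all later ones. bop1 was at 1446 and 1545 at 16 cells and 1195 at 50% epiboly on probe set 2 (0.81 ± 0.099, adjusted p = 1.62e-06) and at 1408 and 1393 and then 1189 on probe set 3 (0.78 ± 0.080, adjusted p = 2.22e-07). On both probe sets the levels stepped down from 16 cells to 9 hours. Its probe set 1 was also higher (0.48 ± 0.13, adjusted p = 0.00367), while probe set 4 was not called (-0.11 ± 0.13, adjusted p = 0.439) and turned higher with the arrays scaled to their medians. rrp9 (0.40 ± 0.065, adjusted p = 3.49e-05) and nop58 on probe set 2 (0.30 ± 0.062, adjusted p = 0.000445) were higher too, and nop58 on probe set 1 was not called (-0.12 ± 0.055, adjusted p = 0.0668).

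The single 50% epiboly array has no replicate, so its values are described by fold alone. Against the 16-cell mean, 18 members were at least 2-fold higher and 1, nol11, at least 2-fold lower, where 17.4% of all probe sets were that much higher and 19.5% that much lower. Against wild type at 9 hours 0 members were 2-fold higher and 1 lower, polr1a, where 2.9% and 1.79% of all probe sets passed, and the median log2 difference was -0.08. The uninjected MZdicer mean was below the 50% epiboly array on 43 of the 52 members, and on 8427 of all 15502 probe sets. Of the members 2, utp6 and nopchap1, were at least 2-fold lower, where 4.8% of all probe sets were. That count lies near the share over all probe sets and is not read as a result about the members. MZdicer was above that array for nol11, by 0.51 on the log2 scale, and for polr1a, by 0.81.

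**Figure D4:**
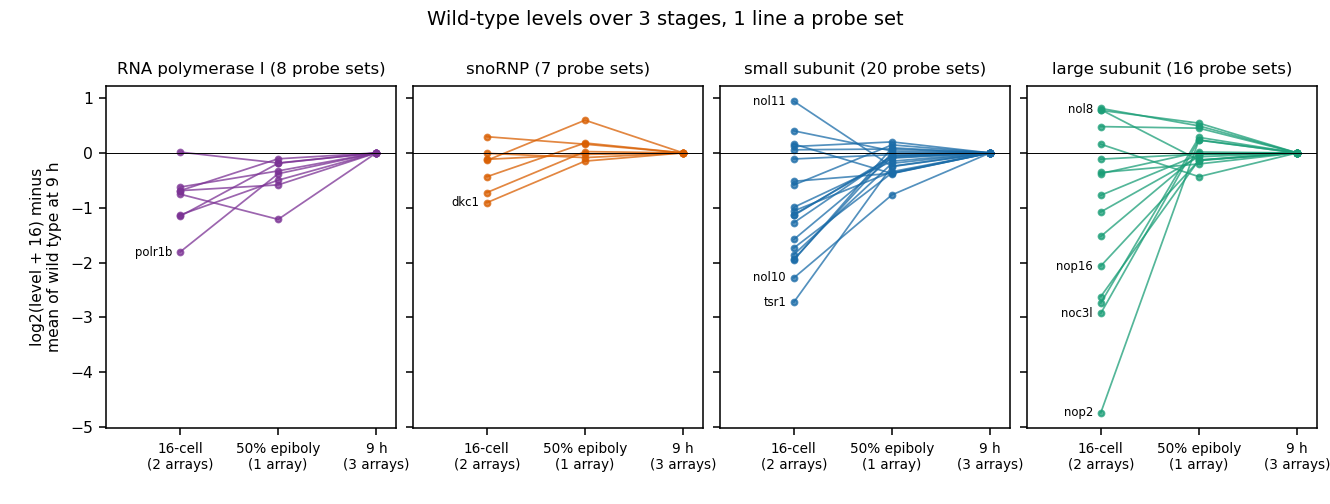
Level of each of 51 members at 16 cells (mean of 2 arrays), 50% epiboly (1 array) and in wild type at 9 hours (mean of 3 arrays). The heading of the figure calls all stages wild type, but the sample titles of the first 2 stages name no genotype. Levels are log2(level + 16) minus the mean at 9 hours, with 1 line for each probe set and 1 panel for each role. Most lines start below 0 at 16 cells and are near 0 by 50% epiboly, nop2, dim at 16 cells, starts lowest at -4.74, and nol11 starts highest at 0.94.

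The other genes of the pathway, 82 genes with 106 probe sets that the rule does not take in, were listed from knowledge of the pathway. In MZdicer against wild type 81 of the 106 were lower and 5 higher, with a median of -0.39. These are 76.4% and 4.72%, where 25.2% and 22.2% of all probe sets were called. Lower were the large subunit genes rrs1 (log2 change -1.64 ± 0.11, adjusted p = 1.25e-07) and surf6 (-1.07 ± 0.061, adjusted p = 3.71e-08), the helicase gene ddx56 (-0.90 ± 0.055, adjusted p = 6.23e-08) and the processome endonuclease-like gene fcf1 on both probe sets (-1.11 ± 0.065 on probe set 2, adjusted p = 4.85e-08, and -0.55 ± 0.082 on probe set 1, adjusted p = 0.000118). Higher were eif6, the factor that keeps free large subunits from joining (0.42 ± 0.049, adjusted p = 1.58e-05), ubtf, the factor that opens rRNA genes for polymerase I (0.30 ± 0.061, adjusted p = 0.0013), and the ATPase gene ruvbl1 (0.25 ± 0.052, adjusted p = 0.00191). The probe sets of the C/D protein gene snu13a moved apart, with 1.35 ± 0.18 on probe set 1 (adjusted p = 4.61e-05) and -0.94 ± 0.11 on probe set 2 (adjusted p = 1.65e-05). After injection of MZdicer 79 of the 106 were higher and 1, ubtf, lower (-0.76 ± 0.061, adjusted p = 1.65e-06). Over all probe sets 12% were called higher and 12.6% lower. Among the higher were gnl3l (1.04 ± 0.076, adjusted p = 7.5e-07), surf6 (0.90 ± 0.061, adjusted p = 4.48e-07), pak1ip1 (0.84 ± 0.064, adjusted p = 1.11e-06) and ddx56 (0.76 ± 0.055, adjusted p = 7.18e-07). The interaction was called positive for 61 of the 106 and negative for 1, where 10.7% and 11.9% of all probe sets were called. Positive were surf6 (1.02 ± 0.087, adjusted p = 6.59e-06), ddx56 (0.82 ± 0.078, adjusted p = 1.52e-05) and the large subunit genes wdr74 (0.86 ± 0.084, adjusted p = 1.89e-05) and nip7 (0.75 ± 0.079, adjusted p = 3.38e-05), and negative was ubtf (-0.52 ± 0.086, adjusted p = 0.000896).

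Against uninjected wild type 23 of the 106 were higher and 19 lower in injected MZdicer (21.7% and 17.9%, where 16.3% and 15% of all probe sets were called), and against injected wild type 13 were higher and 14 lower (12.3% and 13.2%, where 11.4% and 9.45% of all were). These counts lie near the share over all probe sets and are not read as a result about the list. eif6 was higher in both (0.81 ± 0.049, adjusted p = 3.51e-07, and 0.53 ± 0.049, adjusted p = 1.44e-05), as was snu13a on probe set 1 (1.82 ± 0.18 in both, adjusted p = 1.23e-05 and 2.27e-05). rrs1 was lower in both (-0.75 ± 0.11, adjusted p = 0.000249, and -0.76 ± 0.11, adjusted p = 0.000385), and so was snu13a on probe set 2 (-0.72 ± 0.11, adjusted p = 0.000386, and -0.85 ± 0.11, adjusted p = 0.000197). naf1, an assembly factor of H/ACA particles, was higher in both (0.88 ± 0.095, adjusted p = 2.47e-05, and 0.57 ± 0.095, adjusted p = 0.00103). The helicase gene ddx49 was higher against uninjected wild type (0.37 ± 0.068, adjusted p = 0.00134), and the helicase gene ddx55 against injected wild type (0.49 ± 0.075, adjusted p = 0.000564). ubtf was lower in both (-0.46 ± 0.061, adjusted p = 0.000132, and -0.22 ± 0.061, adjusted p = 0.024), as was fcf1 on probe set 2 (-0.38 ± 0.065, adjusted p = 0.000747, and -0.52 ± 0.065, adjusted p = 0.000133) but not on probe set 1. Of the 4 probe sets of the processome gene wdr3, probe set 3 was lower in both (-0.91 ± 0.12, adjusted p = 0.000107, and -0.54 ± 0.12, adjusted p = 0.00667) and the others were not called. The identifier of probe set 3 has the suffix of sets with probes that can match other transcripts. Of the 4 of the helicase gene ddx51, 3 were lower in both, with changes from -0.27 to -0.66, and the other was not called.

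In wild type 10 of the 106 were higher and 6 lower after injection (9.43% and 5.66%, where 7.32% and 6.73% of all probe sets were called). These counts too lie near the share over all probe sets and are not read as a result about the list. The gene sbds, which releases eif6 from the large subunit, was lower (-0.51 ± 0.089, adjusted p = 0.00221). Also, ubtf was lower (-0.24 ± 0.061, adjusted p = 0.0199) and eif6 was higher (0.28 ± 0.049, adjusted p = 0.00202). The small subunit gene aatf (-0.24 ± 0.062, adjusted p = 0.0204) and ubtfl, a relative of ubtf (-0.26 ± 0.068, adjusted p = 0.0214), were lower. gtpbp4 (0.19 ± 0.041, adjusted p = 0.00844), wdr12, the partner of bop1 and pes (0.23 ± 0.055, adjusted p = 0.0138), and the small subunit gene bysl (0.24 ± 0.062, adjusted p = 0.0233) were higher.

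At 16 cells 75 of the 106 were lower than at 9 hours and 18 higher, where 35.6% of all probe sets were called lower and 40% higher. Lower were the large subunit genes nsa2 (-3.64 ± 0.058, adjusted p = 1.55e-17) and gtpbp4 (-2.98 ± 0.050, adjusted p = 3.19e-17), the nucleostemin gene gnl3 (-4.17 ± 0.078, adjusted p = 1.11e-16) and all 4 probe sets of mybbp1a, with changes from -0.40 to -2.97. Higher were eif6 (1.24 ± 0.059, adjusted p = 1.27e-11), tsr3 (1.23 ± 0.10, adjusted p = 1.23e-08), both probe sets of the helicase gene ddx31 (1.27 ± 0.14 on probe set 1, adjusted p = 5.37e-07, and 0.65 ± 0.097 on probe set 2, adjusted p = 1.47e-05) and 1 of the 2 probe sets of the exonuclease gene xrn2 (1.49 ± 0.083 on probe set 1, adjusted p = 9.02e-11, and 0.20 ± 0.17 on probe set 2, adjusted p = 0.301).

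The structural proteins of the ribosome are made from a separate set of genes. Of 79 probe sets of cytosolic ribosomal protein genes, 6 were lower and 20 higher in MZdicer (7.59% and 25.3%), with a median of 0.05. Over all probe sets 25.2% were lower and 22.2% higher, so the share called higher lay near that of all. After injection of MZdicer 3 of the 79 were called higher (3.8%, where 12% of all probe sets were). At 16 cells 78 of the 79 were lower than at 9 hours, where 35.6% of all were, with a median of -2.58. Of the 10 probe sets of RNA polymerase II subunits, 6 were lower and 3 higher in MZdicer (60% and 30%, against 25.2% and 22.2% of all). After injection 5 were higher and 3 lower (50% and 30%, against 12% and 12.6% of all). Of the 6 of RNA polymerase III, 3 were called lower in MZdicer (50%) and 4 higher after injection (66.7%), against the same shares of all. Both lists are short. The difference between these lists and the members was not tested.

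**Figure D5:**
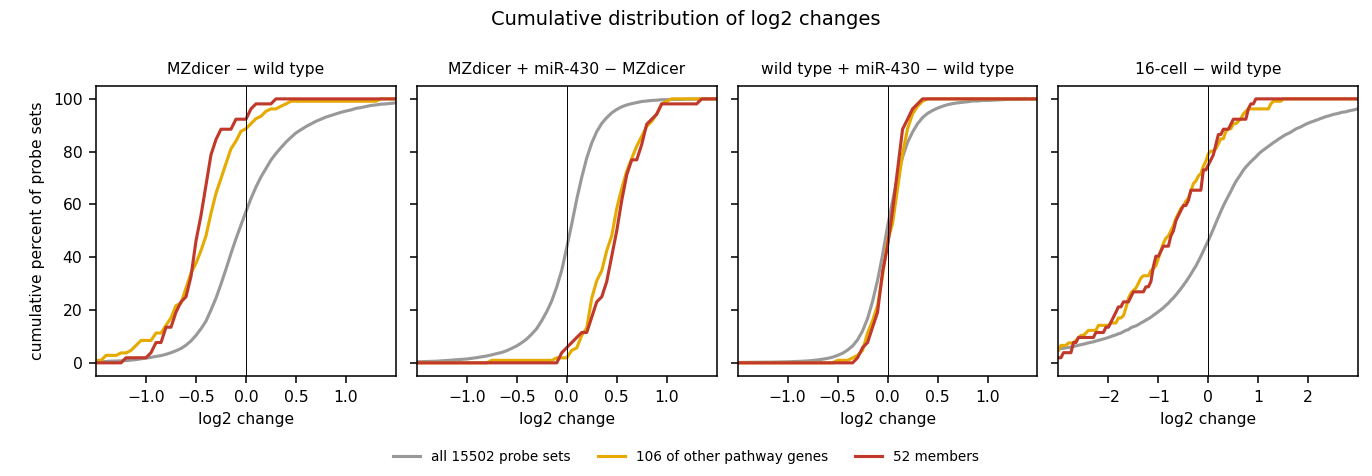
Cumulative percent of probe sets by log2 change for all 15502 probe sets (grey), the 106 of other pathway genes (yellow) and the 52 members (red), in MZdicer against wild type, injected against uninjected MZdicer, injected against uninjected wild type, and 16 cells against wild type at 9 hours. The red curve lies left of the grey in the first panel (medians -0.49 and -0.07), right of it in the second (0.51 and 0.04), along it near 0 in the third (0.02 and -0.01) and left of it in the fourth (-0.71 and 0.08).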

How the data were processed

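Total RNA of 20 embryos per array was copied from an oligo(dT) primer, labelled and hybridised to an Affymetrix Zebrafish array, per the labels' protocols. The deposited values are linear probe set intensities. The sources used here do not give how the authors summarised, background-corrected or scaled them. Their medians ran from 155.4 to 196.1 across the 15 arrays. Here the intensities were quantile normalised over the 15 arrays (R 4.3.3, limma 3.58.1), values below 0 were set to 0, 16 was added and log2 was taken, which understates changes of dim transcripts. The 115 control probe sets were left out. limma (lmFit, contrasts.fit, eBayes with trend) was fitted over the 12 arrays of the wild-type and MZdicer groups at 9 hours or injected, and over all 15 for the 16-cell comparison, with Benjamini-Hochberg adjustment over 15502 probe sets and a threshold of 0.05. Precision is limited by how many arrays there are. The fit was tested on simulated data.

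Gene symbols are those of the platform annotation, in which 10795 probe sets have 1 symbol, 135 several and 4572 none. All 52 members matched a gene of the RefSeq table by its identifier. The members and all gene lists were chosen with earlier results of these data known. Values of every array are given for the polr1 genes, fbl, dkc1, tsr1 and, in each comparison, up to 4 called members in each direction with the smallest p. Up to 6 members in each direction with the largest called change, and up to 4 other pathway genes, are named with their change, and a gene with several probe sets is named with each. The sequences of member promoters and proteins were planned but are not analysed here. Same-numbered replicates did not deviate together (correlations of deviations from -0.23 to 0.26). With so few arrays in a group this cannot exclude that the numbers pair the arrays, and no pairing was used in the main fit. Alternatives covered scaling, pseudocount, a filter on dim probe sets, the trend, and replicate number, scan day and hybridisation date as blocks. They also covered the arrays fitted, leaving out each array, and the choice of members. The normalisation of 12 arrays on their own and the values within a hybridisation date were added after seeing the data.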

Additional observations from a re-analysis of the deposited data

Results flagged for a closer look

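The effect of the injection differed between MZdicer and wild type for 40 of the 52 probe sets, by limma's test of the interaction of genotype and injection, and in all 40 it was more positive in MZdicer. Over all probe sets 10.7% were called positive and 11.9% negative. The difference on the log2 scale was 1.31 for tsr1 (adjusted p = 1.09e-06), 0.62 for nol7 (adjusted p = 1.25e-05), 0.84 for noc4l (adjusted p = 1.43e-05), 0.85 for polr1c (adjusted p = 2.21e-05), 1.02 for nol10 (adjusted p = 5.77e-05), 0.86 for nol12 (adjusted p = 0.0118) and 0.73 for rrp9 (adjusted p = 5.39e-05). All 4 groups enter this test with 3 arrays each. Leaving out 1 array at a time gave 36 to 45 such probe sets, 36 without wild type miR-430 replicate 1 and 45 without MZdicer miR-430 replicate 1. The correlation between arrays of 1 group was lowest, at 0.983, within injected MZdicer.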

How the results depend on the processing

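With 3 arrays in most groups and 1 at 50% epiboly, precision is limited, and signal near the background limits the dim polr1b probe set and nol4lb. Of the calls made, 39 of 47 lower in MZdicer, 40 of 44 higher after its injection, 34 of 40 interactions, and 29 of 33 lower and 6 of 7 higher at 16 cells were made under every alternative run, while 1 of 5 higher and 0 of 4 lower were in injected wild type, 2 of 5 and 2 of 7 in injected MZdicer against wild type, and 0 of 6 and 0 of 3 against injected wild type. The cause was not tested for any value below.

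In MZdicer against wild type 2 members were called higher and 39 lower with the intensities as deposited. For that comparison the median over all probe sets was -0.07 as reported, 0.03 with the intensities as deposited and -0.12 with median centring, and over the members -0.49, -0.37 and -0.53, while 46.9%, 65.0% and 40.6% of all calls were higher. At 16 cells the median was 0.08, -0.15 and -0.02 over all probe sets and -0.71, -0.51 and -0.39 over the members. The size of the difference between members and all probe sets at 16 cells thus depended on the scaling. In injected wild type 3 members were higher with the intensities as deposited, with median centring, without the trend and with the replicate block. Lower there were 7 with median centring and 1 without the trend. With the replicate block, scan day as a block or only the arrays compared 2 were lower, and with hybridisation date as a random block 1. In injected MZdicer against wild type 11 were higher and 3 lower with the intensities as deposited, and 3 and 3 without the trend. With hybridisation date as a random block 3 were higher and 4 lower, and with only the arrays compared 2 and 2. With the replicate block 4 were lower. Against injected wild type 2 were higher with only the arrays compared, and 7 were higher and 1 lower with the intensities as deposited. At 16 cells 12 were higher and 30 lower with median centring, and 4 were higher with 1 probe set a gene. At 50% epiboly 2 members were at least 2-fold below 16 cells with the intensities as deposited and 3 with median centring.

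Leaving out 1 array gave 1 higher and 44 to 47 lower in MZdicer, 41 to 47 higher and 0 lower after its injection, 1 to 6 and 0 to 5 in injected wild type, 2 to 9 and 3 to 7 in injected MZdicer against wild type, 1 to 6 and 1 to 4 against injected wild type, 36 to 45 positive and 0 negative interactions, and 7 to 9 and 33 to 35 at 16 cells. The replicate block, whose numbers are not known to pair the arrays, gave 1 higher and 46 lower in MZdicer and 43 higher after its injection. It also gave 40 positive interactions, and 7 higher and 33 lower at 16 cells. Between 16 cells and 9 hours the direction turned for polr1b on probe set 2 (-0.42) and nol4lb (-0.33) with the intensities as deposited, and for bop1 on probe set 4 (0.34) and nol9 (0.088) with median centring. Scan day as a block could not be fitted for the 16-cell comparison, the interaction uses all 12 arrays of its fit already, and no array can be left out at 50% epiboly.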
